A study of Mytilus galloprovincialis with 16 samples.

Results

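The clones described here are 129 of the 1920 cDNA clones printed on a mussel array, selected on their measured sex ratios because they were more abundant in the male than in the female digestive gland at the second of 4 stages of gonad development. The authors' deposited log2 ratios were averaged over both spots of a clone and the 4 arrays of a stage and turned to male over female. A clone was a member when this mean was at least 0.45 at stage 2, below 0.7 at stage 1, and between -0.5 and 0.7 at stage 3. Of 167 clones that reached 0.45 at stage 2, 22 were left out because they were as high as 0.7 at stage 3 and 16 because they were as low as -0.5 there, while the limit at stage 1 removed 0. The 2 members nearest the limit had means of 0.4512 and 0.4515, and the 2 nearest clones below it had 0.4498 and 0.4478. The 2 highest members had 1.66 and 1.63. The sex ratios of stages 1 to 3 thus chose the members and are given as a description. The sex ratio of stage 4 was not used by the choice. The mean signal of both sexes was not used directly, but at stage 2 it holds the male signal that the choice favoured.

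The study set males against females of Mytilus galloprovincialis, the Mediterranean mussel, from a wild population of a Tunisian lagoon, with no treatment. Males and females were compared at stage 1 (November), stage 2 (January), stage 3 (February) and stage 4 (March), with 4 arrays per stage. Every array carried RNA of 1 male and 1 female of the same stage, each a single animal whose sex and stage had been read from sections of the mantle. Each stage came from 1 month, so stage and month cannot be told apart, and the labels date stage 2 to an earlier year than the study's methods do. In the mussel the digestive gland takes up and digests the filtered food and stores reserves that can be used for gamete production, while the gonad itself spreads through the mantle. A competitive array gives the relative mRNA abundance of a transcript in both animals through the brightness of 2 dyes, Cy3 and Cy5, and exchanging the dyes between arrays lets a dye effect cancel in the mean of a stage.

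The males were labelled with Cy5 on 8 arrays and with Cy3 on 8, 2 of each within every stage. Between 28.7% and 56.7% of clone spots were above background, that is, more than 2 background SDs over the local background in at least 1 channel. In stage 4, the arrays of replicates 2 and 4 agreed to within the scatter of duplicate spots, so they entered as 1 sample and n was 3 there. The mean ratios of stage 1 and stage 2 ran against each other over all clones (r = -0.589, across 1920 clones that share their arrays, so this is a description), and the direction of stage 2 follows the dyes in the labels. Were the dyes of stage 2 exchanged in the labels, every stage 2 ratio given here would change its sign and the members would be higher in females at that stage, and this was not tested. No file used here pairs the clones with genes, so they are given by identifier, their sequences are not shown, and the tissue could not be checked against marker genes. In whole glands, fewer cells of a type and less RNA per cell cannot be told apart. All ratios below were computed from the scanner intensities after a background correction with an offset of 50, which draws the ratios of dim clones towards 0.

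At stage 2 the male signal of the 129 clones stood above the female signal, and at the other 3 stages both sexes lay close together. On the log2 scale the median male signal of the members was 7.02, 6.95, 6.72 and 6.80 on the 4 arrays of stage 1. It was 7.01, 7.53, 7.65 and 8.29 at stage 2, and 6.83, 6.80, 7.06 and 7.23 at stage 3. It was no higher than 7.09 on any array of stage 4. The stage 2 males were therefore spread widely, from a level seen at other stages in replicate 1 to the highest of all 16 arrays in replicate 4. The median female signal was 7.01, 7.05, 6.87 and 6.98 at stage 1, and 6.98, 6.91, 6.85 and 6.90 at stage 2. It was 7.06, 6.93, 7.07 and 7.07 at stage 3, and between 7.06 and 7.16 at stage 4. Over the 16 arrays the female medians thus covered a much narrower range than the male medians. The stage means were 6.87 ± 0.14, 7.62 ± 0.52, 6.98 ± 0.20 and 7.02 ± 0.043 for males at stages 1 to 4, against 6.98 ± 0.078, 6.91 ± 0.055, 7.03 ± 0.069 and 7.11 ± 0.051 for females (SD over arrays, n = 4, and n = 3 at stage 4).

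**Figure D1:**
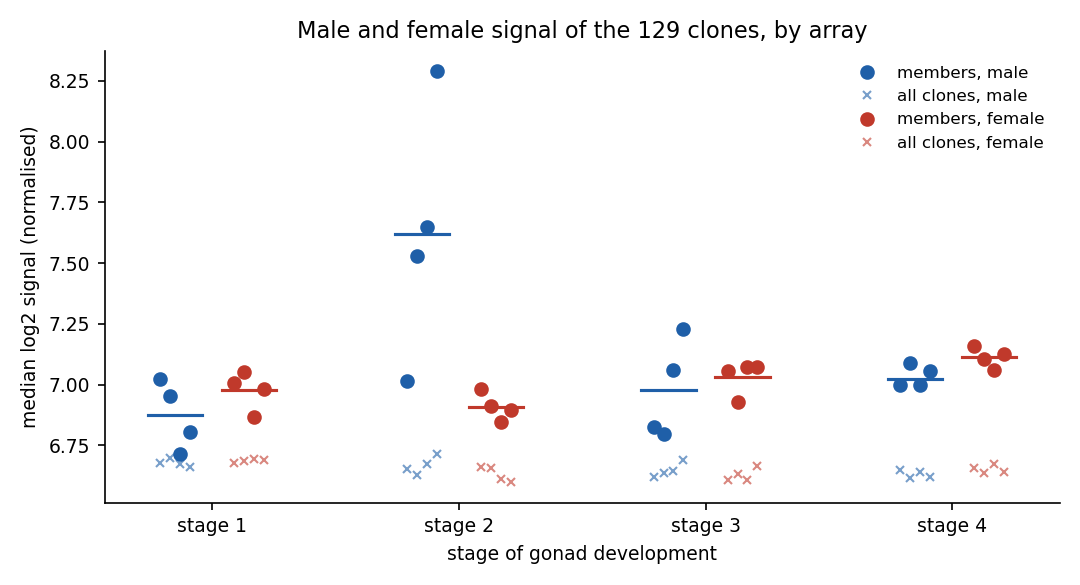
Median normalised log2 signal of the 129 clones on each array (filled circles) and of all 1920 clones (crosses), for males (left, blue) and females (right, red) at stages 1 to 4; bars are stage means. The male medians of stage 2 run between 7.01 and 8.29, while no female median of any stage is above 7.16.

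The members were brighter than most clones, which depends on the spot as well as on the transcript. Ranked by mean signal over all arrays, the median of the members stood at percentile 68.0 of the array. Without the arrays of stage 2 it stood at percentile 65.7, which does not remove this effect of the choice. Above the median clone were 98 members. At stage 2 the male signal was above background on at least 1 array for all but 2 members, whereas at stages 1, 3 and 4 males were above background on no array for 44, 34 and 36 members. Females were above background on no array for 36, 10, 21 and 29 members at stages 1 to 4. Over all clones the share above background on no array was 44.8%, 46.7%, 43.3% and 47.9% for males and 45.9%, 33.1%, 38.1% and 44.7% for females at stages 1 to 4. The female share was thus lowest at stage 2 on the whole array as well, while the low male count of stage 2 is part of the choice. For the 10 such members of stage 2, 8 had males above background on at least 1 array. Their lower bounds, taken from the stage 2 ratio that chose them, ran from 1.26-fold to 1.63-fold higher in males and are a description only. Each was measured, per array, against the higher of the female signal and the lowest signal above background. The male mean took all 4 arrays, and Myt01-001F09, with the highest bound, had males above background on 1 of them. For the other 2 of the 10 neither sex was above background and no fold holds.

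Within clones, the male side moved more than the female side. The male signal was higher at stage 2 than at stage 1 in 119 members, with a median change of 0.65 on the log2 scale, and in 82 it was more than 0.5 higher. The female signal was lower at stage 2 than at stage 1 in 75 members, with a median change of -0.089, and in 33 it was more than 0.5 lower. Both held for 65 members. From stage 2 to stage 3 the male signal was lower in 104 members (median change -0.51), and the female signal changed by a median of 0.16. The male signal was highest at stage 2 in 95 of the 129, and the female signal was lowest at stage 2 in 54. These signals make up the ratio that chose the clones, so no test was made on them.

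The ratio of males over females gave the same course. Its median over the members was -0.11, -0.093, -0.056 and -0.12 on the 4 arrays of stage 1. At stage 2 it was 0.11 and 0.41 on the arrays with the male in Cy5 and 0.61 and 1.43 on those with the male in Cy3. At stage 3 it was -0.038, -0.021, -0.021 and 0.091. At stage 4 it was -0.058, -0.020, -0.035 and -0.032. All 4 arrays of stage 2 were above every array of the other stages. The stage 2 mean was 0.64 ± 0.56 (SD, n = 4), a 1.56-fold difference, while the median of all clones at stage 2 was 0.013 ± 0.016. The mean of the array medians was -0.095 ± 0.028 at stage 1 and 0.0028 ± 0.059 at stage 3.

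**Figure D2:**
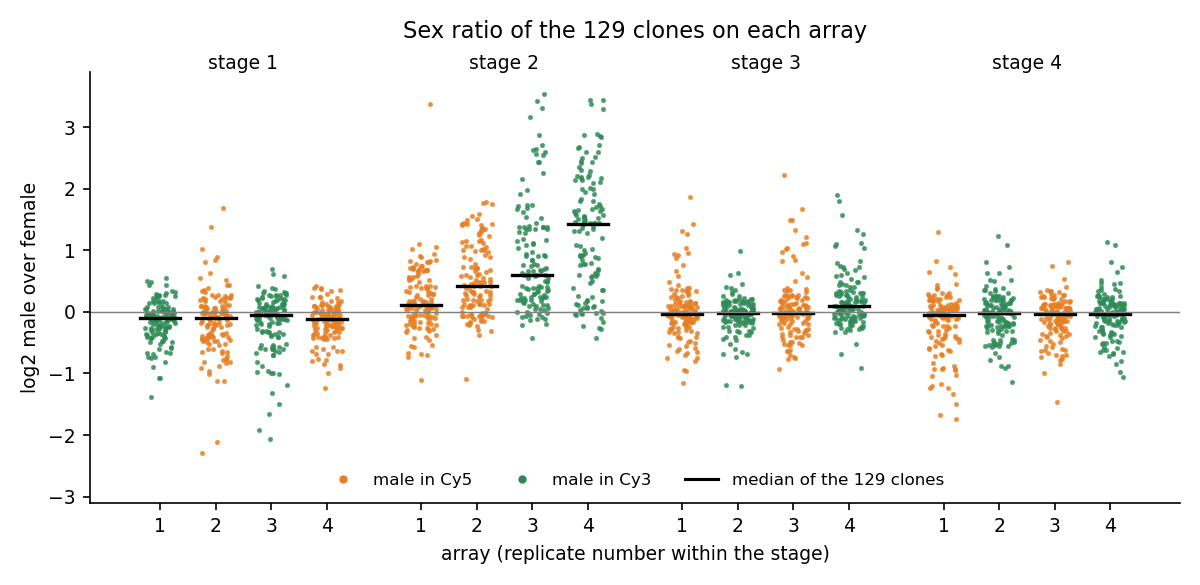
Log2 male over female of each of the 129 clones (points) on the 16 arrays, with orange for arrays with the male in Cy5 and green for the male in Cy3; black bars are medians. At stage 2 the medians are 0.11 and 0.41 with the male in Cy5 and 0.61 and 1.43 with the male in Cy3.

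In 124 members the ratio of stage 2 was the highest of the 4 stage means. At stage 1, 105 members lay below 0, of which 34 were below -0.3, and 2 were above 0.3. At stage 3, 75 members were above 0, with 16 above 0.3 and 8 below -0.3. At a limma adjusted p under 0.05 (Benjamini-Hochberg over the 1920 clones), 17 members were called higher in males at stage 2 (0.885% of all clones) and 0 lower (0.781%). Stage 1 gave 2 members called lower (0.469%) and 0 higher (4.48%), with 10 lower (5.05%) and 0 higher (9.64%) at an unadjusted p of 0.05. Stage 3 gave 0 members called higher (0.99%) or lower (0.104%), with 1 higher (8.23%) and 0 lower (9.84%) at an unadjusted p of 0.05. These calls use the contrasts that chose the clones, and nothing is read from them.

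The members differed widely in how evenly the arrays of stage 2 shared the male excess. The ratio was above 0 on 4 of 4 arrays in 55 members, on 3 in 48, on 2 in 25 and on 1 in 1, and 12.6% of all clones were above 0 on every stage 2 array. The median SD over the 4 arrays was 0.735 for the members at stage 2, against 0.229 for all clones at that stage, and the members had 0.294 at stage 1 and 0.247 at stage 3. The highest ratio of a clone fell on replicate 4 in 75 members, on replicate 2 in 33, on replicate 3 in 18 and on replicate 1 in 3. Only 19 members were over 2-fold higher in males in the stage mean.

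The male excess at stage 2 moved with the dye orientation. The stage 2 ratio was higher with the male in Cy3 than with the male in Cy5 in 95 of the 129 members, or 73.6% (61.3% of all clones). The members' medians were 1.07 with the male in Cy3 and 0.21 with the male in Cy5, while those of all clones were 0.037 and -0.0043. The mean was above 0 in both orientations in 80 members, only with the male in Cy3 in 38 and only with the male in Cy5 in 11. The limit of 0.45 was reached in both orientations by 18 members, only with the male in Cy3 by 81 and only with the male in Cy5 by 30. Over all clones, the ratios of replicates 1 and 2 correlated with r = 0.673 and those of replicates 3 and 4 with r = 0.652, while pairs across the orientations gave r of -0.077 to 0.239. Each orientation holds 2 animals of each sex, so at stage 2 alone animals and dye cannot be told apart.

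The other stages, with other animals, carried the same orientation difference in part. Among the 81 clones that reached 0.45 only with the male in Cy3, the ratio with the male in Cy3 exceeded that with the male in Cy5 by a median of 0.159, 0.203 and 0.11 at stages 1, 3 and 4, and it did so in 51, 58 and 51 clones. Among the 30 clones that reached it only with the male in Cy5, the median difference was -0.363, -0.165 and -0.0423 at stages 1, 3 and 4, and 22, 24 and 16 clones lay below 0. Over all clones the median differences were -0.0192, -0.0003 and 0.0252, and 47.7%, 49.9% and 53.4% of them lay above 0. The difference was above 0 at all of stages 1, 3 and 4 in 34.6% of the 81 clones, 6.67% of the 30 clones and 14.3% of all clones. It was below 0 at all of them in 7.41% of the 81, 36.7% of the 30 and 12.1% of all clones. Both sets were formed from stage 2 values after those had been seen, and the part of the dye in the male excess was not tested.

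**Figure D3:**
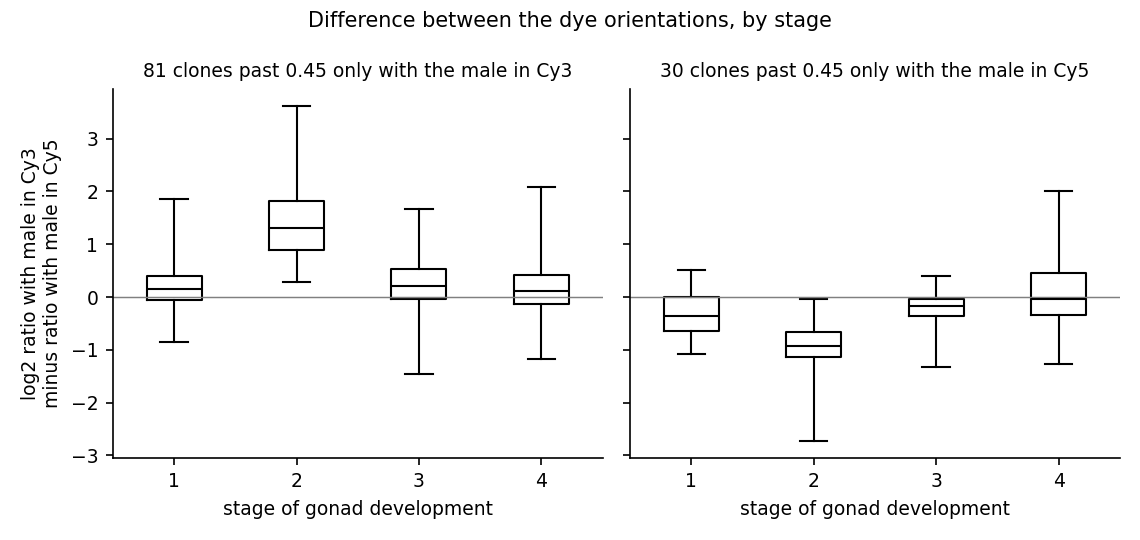
Log2 ratio with the male in Cy3 minus the ratio with the male in Cy5 at each stage, for the 81 clones past 0.45 at stage 2 only with the male in Cy3 (left) and the 30 past it only with the male in Cy5 (right); boxes show the quartiles and median, whiskers the full range. Stage 2 formed the sets; at stages 1, 3 and 4 the medians are 0.159, 0.203 and 0.11 on the left and -0.363, -0.165 and -0.0423 on the right.

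The signals of both sexes are described in the same way by set. In the 81 clones the male signal changed by a median of 0.76 from stage 1 to stage 2 and the female signal by 0.0029. In the 30 clones the male signal changed by 0.33 and the female signal by -0.49. In the 18 clones past 0.45 in both orientations the changes were 0.80 for males and -0.12 for females. The 30 clones were the brighter, at a median percentile of 81.3 against 60.5 for the 81 and 69.1 for the 18.

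The 2 highest members show the orientation pattern most plainly. Myt01-003A11 had background-subtracted male intensities of 77.0, 156.0, 1628 and 2135 on the 4 arrays of stage 2, against female intensities of 233.0, 171.0, 179.0 and 240.5. Its log2 ratios there were -0.56, 0.30, 3.54 and 3.44, so the male channel stood out on replicates 3 and 4 only. At stage 1 the ratios were 0.011, -2.29, 0.20 and -1.23, and at stage 3 they were -0.40, 0.21, -0.94 and 1.80. At stage 4 they were -1.74 and -0.99 with the male in Cy5 and 0.81 and 0.64 with the male in Cy3, the last pair being counted as 1 sample. At every stage the ratio with the male in Cy3 was the higher, by 1.86, 3.62, 1.67 and 2.09 at stages 1 to 4.

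Myt01-018D06 ran in the same way. Its male intensities at stage 2 were 77.5, 102.5, 1524 and 2372, against female intensities of 172.5, 149.5, 166.5 and 276.0. The log2 ratios were -0.22, -0.026, 3.42 and 3.43, again high only with the male in Cy3. The ratio with the male in Cy3 exceeded that with the male in Cy5 by 0.52, 3.55, 1.36 and 1.11 at stages 1 to 4. The stage 2 means were 1.68 ± 2.12 for Myt01-003A11 and 1.65 ± 2.05 for Myt01-018D06 (SD, n = 4), so for both the spread over arrays was wider than the mean. Whether these clones share sequence is not known from the files used here.

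The question for stage 4 was whether the male excess lasted, and there the members were not higher in males. The stage 4 ratio was below 0 in 87 of the 129 members, or 67.4%, and below 0 in 58.6% of all clones. The median of the members' stage means was -0.11, between -0.92 and 0.70, while that of all clones was -0.023. Of the members, 26 were below -0.3 and 7 above 0.3. In limma, 0 of the 129 members were called in either direction, and 0% of all clones were. At an unadjusted p of 0.05, 2 members were lower in males (1.93% of all clones) and 0 were higher (2.19% of all clones), and 0 members had a B statistic, the log odds of a difference, over 0 in either direction (0.208% of all clones as higher and 0% as lower). The males lay below the females in every replicate of stage 4 in 25 members, or 19.4% (13.9% of all clones), and above them in 14, or 10.9% (12.7% of all clones). With replicates 2 and 4 averaged, the stage 4 mean holds 2 samples with the male in Cy5 and 1 with the male in Cy3. A dye effect therefore does not cancel in it. The members' ratio was higher with the male in Cy3 in 72 of the 129, or 55.8% (53.4% of all clones). With both orientations weighted equally, 86 members were below 0, or 66.7% (55.3% of all clones), and their median was -0.062, against -0.0142 in all clones. The median of the members was -0.017 in the 1 sample with the male in Cy3 and -0.082 in the 2 with the male in Cy5.

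The member with the smallest p on the male side of stage 4 was Myt01-009D06, a bright clone above background in both sexes on all 16 arrays. Its male intensities at stage 4 were 2776, 1546, 2397 and 1873 in replicates 1 to 4, against female intensities of 822.5, 1425, 1176 and 916.5. The log2 ratios were 1.30 and 0.81 with the male in Cy5 and -0.071 and 0.037 with the male in Cy3, and the mean was 0.70 ± 0.66 (SD, n = 3, limma adjusted p = 1.00). On the female side it was Myt01-002B10, with log2 ratios of -1.24 and -0.67 with the male in Cy5 and 0.12 and 0.0079 with the male in Cy3. The estimate was -0.62 ± 0.23 (SE, limma unadjusted p = 0.0181, adjusted p = 0.931), and the clone was above background at stage 4 in replicate 1 only. Both clones thus showed their difference on the arrays with the male in Cy5, and with print-tip loess the value for Myt01-009D06 turned to -0.046.

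Members that still leaned to males at stage 3 are described apart at stage 4, and this split was not tested. The 16 members with a stage 3 ratio over 0.3 had a median of 0.062 at stage 4. Of these, 9 were above 0, where 58.6% of all clones were below 0. The other members had a median of -0.11. The 30 clones past 0.45 only with the male in Cy5 held 13 below 0 at stage 4, the 81 of the opposite orientation 63, and the 18 in both orientations 11. The uneven weight of the orientations in the stage 4 mean lowers clones that read higher with the male in Cy3, and with equal weights the counts were 13, 63 and 10, with medians of 0.0199, -0.123 and -0.0223.

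Taken over both sexes, some members were more abundant at stage 2 than at stage 1. The mean log2 signal of both channels changed from stage 1 to stage 2 by a median of 0.30 in the members, against -0.011 in all clones. In limma 8 of the 129 members rose, or 6.2%, where 3.23% of all clones rose, and 1 fell (0.775%), where 4.01% of all clones fell. At an unadjusted p of 0.05, 33 members were higher, or 25.6% (11.6% of all clones). The 4 arrays of stage 2 lay above the 4 of stage 1 in 15 members, or 11.6% (8.39% of all clones). The mean signal holds the male signal that the choice favoured, and the array with the highest median ratio of stage 2 was also the one with the highest mean signal, so the higher share is not independent of the choice. Among the 8 clones the male signal changed by 1.09 to 2.01 and the female signal by 0.42 to 1.26, upward in both sexes in each. With the arrays split by orientation, the median change of the members was 0.50 with the male in Cy3 and 0.041 with the male in Cy5, with 0 and 2 members called. The count was 5 when replicate 1 or replicate 3 of stage 1, or replicate 2 of stage 2, was left out. With median centring of the mean signal it was 15 higher and 0 lower, and with no scaling between arrays 2 higher and 0 lower.

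Myt01-012E12 had a mean log2 signal of 7.70, 8.77, 7.15 and 7.81 on the arrays of stage 2, against 6.64, 6.31, 6.15 and 6.78 at stage 1. The groups did not overlap, and the estimate was 1.39 ± 0.26 (SE, limma adjusted p = 0.00906). At stage 1 neither sex was above background on any array, so that the clone was at least 2.3-fold brighter at stage 2. Its sex ratios at stage 2 were 0.95 and 1.51 with the male in Cy5 and 0.34 and 0.96 with the male in Cy3. The excess was thus seen in both orientations, at a mean of 0.649 with the male in Cy3 and 1.23 with the male in Cy5.

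Myt01-001B12 had 7.78, 7.34, 8.87 and 7.57 at stage 2, against 6.44, 6.44, 6.66 and 6.73 at stage 1. The estimate was 1.32 ± 0.25 (SE, limma adjusted p = 0.00906), and with neither sex above background at stage 1 the clone was at least 2.36-fold brighter at stage 2. Its sex ratios at stage 2 were -1.11 and 0.21 with the male in Cy5 and 3.30 and 2.09 with the male in Cy3. The male excess was thus seen with the male in Cy3, at a mean of 2.70, while the mean with the male in Cy5 was -0.449. With arrays of 1 orientation alone neither clone passed, with adjusted p of 0.083 and 0.089 for the male in Cy5 and of 0.211 and 0.210 for the male in Cy3.

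The member that fell was Myt01-017F09, a bright clone above background in both sexes on all arrays. Its mean log2 signal was 8.87, 8.79, 9.34 and 8.96 at stage 2, against 9.88, 9.82, 9.78 and 9.76 at stage 1 (-0.82 ± 0.20, SE, limma adjusted p = 0.0256). The male signal changed by -0.53 and the female signal by -1.12, and the sex ratios of stage 2 were 0.52, 0.53, 0.50 and 0.24. This was a small male excess on every array within a lower level in both sexes. The call was lost without replicate 1 or 3 of stage 1, with adjusted p of 0.0576 and 0.0591, and without replicate 1, 2 or 4 of stage 2, with 0.0766, 0.0740 and 0.0631. Over all alternatives the adjusted p was 0.000992 to 0.524.

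**Figure D4:**
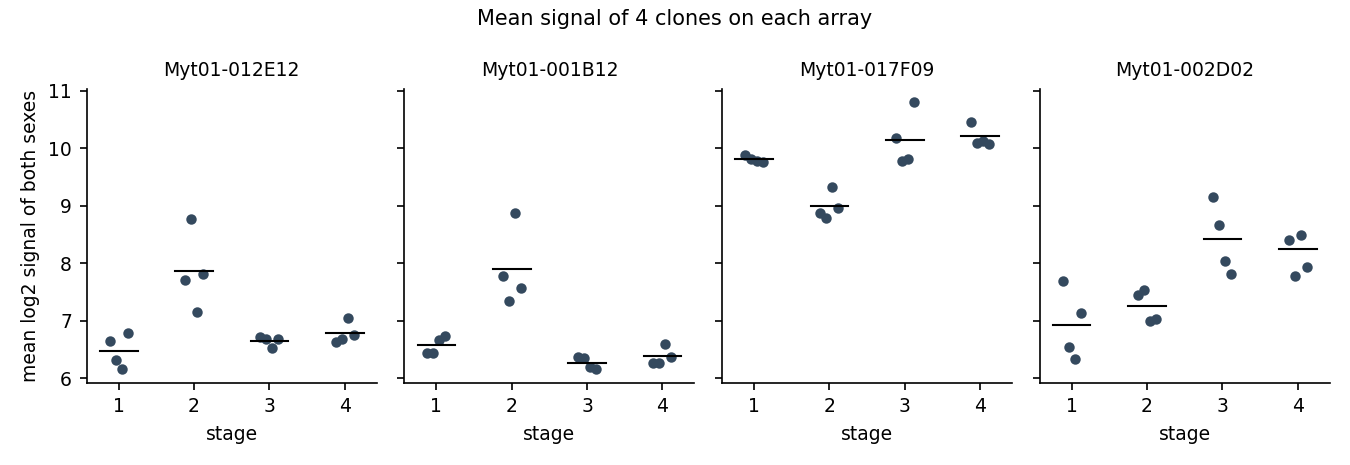
Mean log2 signal of both sexes on each array (points; bars are stage means) for 4 clones at stages 1 to 4. Myt01-012E12 and Myt01-001B12 are highest at stage 2, Myt01-017F09 is lowest at stage 2, and Myt01-002D02 is higher at stage 3 than at stage 2.

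From stage 2 to stage 3 the mean signal of the members changed by a median of -0.16, against 0.018 in all clones. In limma 5 members fell, or 3.88%, where 4.27% of all clones fell, and 2 rose (1.55%), where 3.44% of all clones rose. At an unadjusted p of 0.05, 25 members were lower, or 19.4% (9.11% of all clones). The shares of adjusted calls were thus not above those of the array. Both comparisons use the arrays of stage 2, so clones called in each share those values. The mean signal of stage 2 holds the male signal that the choice favoured. The fall of the median and the share at an unadjusted p are therefore not independent of the choice. The count of 7 was 3 without stage 2 replicate 3, 2 with only arrays with the male in Cy5 and 4 with only those with the male in Cy3. With no scaling between arrays it was 0 higher and 6 lower, and with median centring of the mean signal 1 higher and 6 lower.

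Myt01-001B12 had 6.37, 6.34, 6.19 and 6.16 at stage 3, against the stage 2 values above (-1.62 ± 0.25, SE, limma adjusted p = 0.000672), and Myt01-012E12 had 6.71, 6.68, 6.52 and 6.68 (-1.21 ± 0.26, SE, limma adjusted p = 0.00942). Neither was above background at stage 3, and they were at least 2.52-fold and at least 2.24-fold brighter at stage 2. Of the 2 clones that rose, Myt01-017F09 had 10.18, 9.79, 9.81 and 10.80 at stage 3 (1.15 ± 0.20, SE, limma adjusted p = 0.00186). Its level at stage 3 was close to that of stage 1. Myt01-002D02 had 9.16, 8.67, 8.03 and 7.81 at stage 3, against 7.44, 7.54, 6.99 and 7.02 at stage 2 (1.17 ± 0.32, SE, limma adjusted p = 0.0419). The call for Myt01-002D02 was lost without any 1 array of stage 2, without replicate 1 or 2 of stage 3, and without replicate 4 of stage 1 or replicate 1 or 3 of stage 4, with adjusted p up to 0.118, and over all alternatives its adjusted p was 0.00282 to 0.356.

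Between stage 3 and stage 4 the members' mean signal hardly moved as a group, with a median change of 0.030, against -0.0058 in all clones. In limma 0 of the members and 0% of all clones passed in either direction. At an unadjusted p of 0.05, 3 members were higher (1.56% of all clones) and 1 was lower (1.67% of all clones). Myt01-001D05 had 8.48, 7.80, 8.74 and 8.40 at stage 4, against 8.14, 7.76, 8.04 and 7.32 at stage 3 (0.62 ± 0.21, SE, limma adjusted p = 1.00). Myt01-018B04 had 6.28, 6.47, 6.82 and 6.55 at stage 4, against 7.02, 7.16, 7.31 and 6.81 at stage 3 (-0.54 ± 0.23, SE, limma adjusted p = 1.00), and it was not above background at stage 4 in either sex. In both clones the arrays of stages 3 and 4 overlapped.

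The members were spread unevenly over the clone collection. Each identifier carries a number and a well position, read here as 20 plates of 96 clones. Plate 1 held 32 members, 33.3% of its clones and 24.8% of all members, plate 3 held 16, plate 2 held 10 and plate 7 held 9. Plates 6 and 20 held 0, and on the other plates there were 2 to 7. Of the 32 on plate 1, 12 reached 0.45 at stage 2 only with the male in Cy3, 15 only with the male in Cy5 and 5 in both orientations, while the other 97 members held 69, 15 and 13. The median ratio of the plate 1 members at stage 2 was 0.467, 0.95, 0.370 and 0.645 on replicates 1 to 4, whereas the other 97 members had 0.055, 0.317, 0.666 and 1.45. Plate 1 as a whole, clones outside the choice included, had medians of 0.183, 0.202, 0.185 and 0.183 on these arrays, against -0.012, -0.001, 0.019 and 0.026 for the clones of plates 2 to 20. Without the members, the 64 other clones of plate 1 had medians of 0.128, 0.0731, 0.11 and 0.0819, against -0.014, -0.0066, 0.0074 and 0.0126 for the 1727 others of plates 2 to 20.

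**Figure D5:**
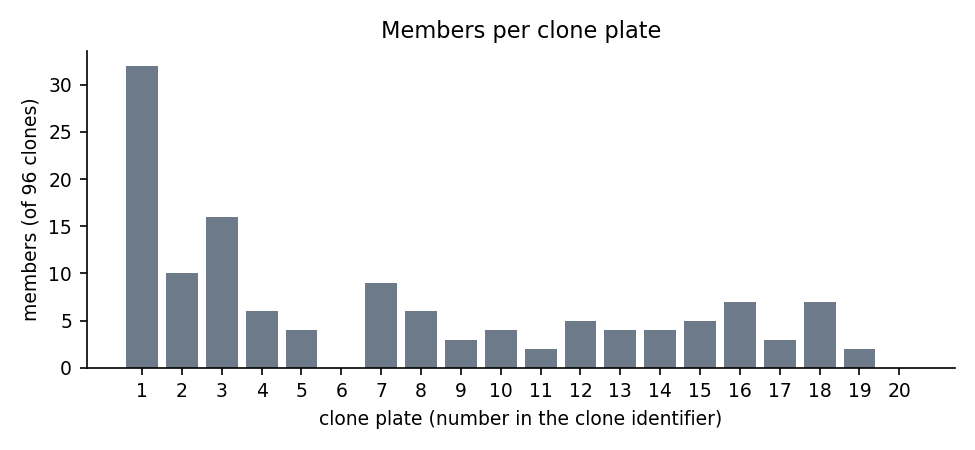
Number of members among the 96 clones of each plate number in the clone identifiers. Plate 1 holds 32 members and plate 3 holds 16, while plates 6 and 20 hold 0.

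Among the plate 1 members the male signal was higher and the female signal lower at stage 2, and these signals make up the ratio that chose them. The 64 other clones of plate 1 had median male signals of 6.88 and 7.02 at stages 1 and 2. Their female signals were 6.81 and 6.82, so no female fall was seen in them. From stage 1 to stage 2 the male signal of the 32 members on plate 1 changed by a median of 0.49 and the female signal by -0.41. In the other 97 members the changes were 0.72 and 0.0029. At stage 1 the plate 1 members had median ratios of -0.34, -0.029, -0.34 and -0.23, so that females were higher on every array. All 96 clones of plate 1, members included, were below 0 there too, at -0.168, -0.056, -0.050 and -0.113. At stage 4 the plate 1 members had 0.099 and 0.059 with the male in Cy5 and -0.22 and -0.23 with the male in Cy3, and the arrays went both ways. The 96 clones of the plate did so as well, with 0.088 and 0.052 against -0.313 and -0.323. Without the members, the median stage mean of plate 1 was -0.048 at stage 1 and -0.137 at stage 4, against -0.271 and -0.038 for its members. On the slide itself 18 members lay in printing block 14, 15 in block 3 and 14 in block 15, of 120 clones in each block, and 1 lay in block 9. Plate 1 was printed only in blocks 5, 7, 13 and 15, and 11 of the 14 members in block 15 were plate 1 clones. Block and plate are therefore not separate patterns there.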

How the data were processed

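Digestive gland RNA of single male and female mussels was compared on 16 two-colour arrays. The deposited scanner files hold the foreground and local background intensity of each spot on a linear scale, not normalised, which the authors extracted with GenePix from the scans. In the value table deposited by the authors, every spot has 1 log2 ratio per array, and comparison with the scanner values showed its sign to be female over male. The submitters' processing notes name limma, with its version not given in the sources used here. An offset background correction and loess are in the methods. All 16 columns were used, and none holds the authors' comparisons.

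The value table served only to choose the 129 members. All other values start from the scanner intensities, with normexp (offset 50), loess within arrays, in which blank and alignment spots had no weight, and Aquantile for the signals, in limma 3.58.1 under R 4.3.3. Ratios were turned to male over female by the labelled dyes and both spots of a clone averaged, with no filter on dim clones. A single model with a coefficient for each stage was fitted to 15 replicates (11 residual degrees of freedom) with two-sided moderated tests and Benjamini-Hochberg adjustment over 1920 clones at 0.05. Stage 4 replicates 2 and 4 were averaged because they differed with only 0.492 of the variance that duplicate spots predict, whereas the 23 other pairs within a stage gave ratios of 1.61 to 12.6. The ratio of 1.61 was that of stage 2 replicates 3 and 4, both with the male in Cy3, while the other pairs of stage 2 gave 5.56 to 7.68. These 2 arrays were kept as separate replicates. The script was tested on simulated data.

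Clones were named by rule, at most 2 higher and 2 lower per comparison: the largest change among members past the threshold with the same direction in every replicate or without overlap, or, where none passed, the smallest p in each direction, with the 2 largest stage 2 ratios as a description. Gene and marker lists were not used, because no table given here pairs clones with genes. The members, lists and tests were chosen with earlier results of these data known. A lower bound of a fold sets the brighter group against, per array, the higher of the dim signal and the lowest signal above background, and is open to dye bias. The number of arrays limits the precision. Alternatives covered background correction, normalisation, scaling, spots kept apart, the dye, blocks, dim clones, array weights, the call rule, and leaving out each replicate.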

Additional observations from a re-analysis of the deposited data

Results flagged for a closer look

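Of 72 groups of 4 arrays examined, 4 held an array set apart from the other 3 by a gap past Dixon's critical value for its share of the group's range, and chance gives about 1 in 20. At stage 3 the median ratio of the members was 0.091 in replicate 4, and their median female signal was 6.93 in replicate 2. Myt01-012E12 had a mean log2 signal of 6.52 in stage 3 replicate 3, where it was not above background. Myt01-017F09 had a ratio of 0.24 in stage 2 replicate 4, below its other arrays.

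The median ratio of the members was below 0 on every array of stage 1 and above 0 on every array of stage 2, with stage means of -0.095 and 0.64. It was again below 0 on every array of stage 4, with a mean of -0.037, against the 0.64 of stage 2. Neither difference was tested. The choice of the members fixes most of the stage 2 side of both. Its limit at stage 1 removed 0 clones, but the stage 1 side is not independent of the choice either. Over all clones the mean ratios of stages 1 and 2 ran against each other (r = -0.589), so clones high at stage 2 tend to be low at stage 1.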

How the results depend on the processing

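The number of members was 101 to 155 when 1 array was left out and 203 from the stage 2 arrays with the male in Cy3 alone, of which 99 were among the 129; with the male in Cy5 alone it was 133. The median ratio of the 129 at stage 1 was -0.17 with an offset of 10, -0.048 with no background correction and -0.16 with median centring without loess. At stage 4 it was -0.058 with an offset of 10, and at stage 2 it stayed between 0.31 and 0.80. The count of members that differed between the sexes at stage 4 was 2 with array weights (both lower in males, Myt01-002B10 with an adjusted p of 0.0427, over all alternatives 0.0427 to 1.00) and 2 at an unadjusted p of 0.05, and 0 without any 1 replicate. Myt01-009D06 turned to -0.046 with print-tip loess and to -0.017 on arrays with the male in Cy3 alone, where Myt01-002B10 turned to 0.063. For the mean signal of stage 2 against stage 1 the count of 9 became 5 with no background correction, 17 with the spots kept apart, 38 at an unadjusted p of 0.05, 5 by B over 0, 2 with no scaling between arrays, 15 with median centring of the mean signal, 2 and 0 on arrays with the male in Cy5 and in Cy3 alone, and 5 to 10 without 1 replicate. For stage 3 against stage 2 the count of 7 became 17 with the spots kept apart, 32 at an unadjusted p of 0.05, 2 by B over 0, 2 and 4 on arrays with the male in Cy5 and in Cy3 alone, and 3 to 8 without 1 replicate. For stage 4 against stage 3 it was 4 at an unadjusted p of 0.05 and 0 without any 1 replicate. The fits by orientation halve the arrays, and otherwise the cause was not tested. The splits by orientation and the fit without the averaged stage 4 sample were chosen after seeing the data. Replicate numbers do not pair the animals (same-numbered arrays correlated at -0.591 to 0.406 in their ratio deviations), and with the number as a replicate block the counts were 0 at stage 4 and 8, 7 and 0 for the mean signal of stages 2, 3 and 4 against the stage before.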
